A study of Mus musculus with 2 samples.

Results

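The 8 imprinted growth genes described here are *Dlk1*, *Mest*, *Peg3*, *Plagl1*, *Ndn*, *H19*, *Meg3* and *Grb10*. They were chosen by symbol, and all 8 were found among the 33696 genes counted in both libraries. The cells came from neonatal ICR mice that had lost part of the middle phalanx (P2) of digits 2 and 4 of the hindlimb by amputation on postnatal day 3, an injury that normally ends in truncation and scar. At postnatal day 7 a bead carrying FGF8 at 500 ng per microlitre, or 0.1% bovine serum albumin (BSA) as control, was placed in the wound, and cells were taken 24 h later. Each bead group was 1 single-cell library made from 20 pooled digits of 5 mice of both sexes, after the epithelium had been removed and the tissue beyond the stump digested with Liberase. No allele was altered in either group, and FGF8 digits were pooled whether or not they would have gone on to form a joint. Since each condition had 1 library, the bead, the pool of mice and the library preparation cannot be told apart, no test across samples was possible, and every interval below is a 95% interval of counting error only.

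Imprinted genes are transcribed mainly from the copy inherited from 1 parent, because the other copy is silenced by a mark set in the germ line. Many of them act on growth before and shortly after birth, paternally expressed genes often promoting it and maternally expressed genes often restraining it, and many become quiet in tissues as growth slows. *Dlk1* encodes a Delta-like membrane protein that keeps mesenchymal precursors from maturing, *Mest* an enzyme of the hydrolase fold that is abundant in embryonic mesoderm, *Peg3* and *Plagl1* zinc finger proteins, and *Ndn* necdin, a protein that holds back cell division. These 5 are transcribed from the paternal copy. *H19* and *Meg3* are maternally transcribed long noncoding RNAs, and *Grb10* encodes an adaptor that dampens insulin and IGF receptor signalling and is maternally transcribed in most tissues outside the brain. The UMI counts do not separate the parental copies.

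In the GRCm39 build with GENCODE annotation, *Dlk1* (chr12:109418749-109429262, + strand) and *Meg3* (chr12:109506877-109538165, + strand) are neighbours in 1 imprinted region. *H19* (chr7:142129262-142133957, - strand), *Peg3* (chr7:6706882-6733468, - strand) and *Ndn* (chr7:61995473-62000010, + strand) lie in 3 separate regions of chromosome 7. *Mest* is at chr6:30723546-30752058 (+ strand), *Plagl1* at chr10:12936248-13007438 (+ strand) and *Grb10* at chr11:11880498-11988683 (- strand).

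RefSeq promoter windows on GRCm38.p6, from 250 bases before to 50 after a start site, matched 7 of the 8 genes in 11 windows. The motif TGCCGC, bound in its methylated form by Zfp57, a protein that preserves imprints, was searched on both strands. It was present in 11.6% of all 32851 windows and in 5 of the 11 windows of these genes, 2 of them overlapping windows of *Mest*. The 5 windows belonged to 4 of the 7 genes (*Meg3*, *Mest*, *Plagl1* and *Grb10*). They held 53.7% to 80% G and C, beside a median of 52.7% in all windows. The motif GGGGCCCC, bound by Plagl1, was present in 1.08% of all windows and in that of *Peg3* alone among these genes. The *Meg3*, *Mest* and *Peg3* windows are given because they hold these motifs, in capitals (TGCCGC reads GCGGCA where it lies on the other strand). They lie at chr12:109540746-109541045 (+ strand), chr6:30737800-30738099 (+ strand) and chr7:6730370-6730669 (- strand). A match describes the letters of the window and is no evidence of binding in these cells.
Meg3: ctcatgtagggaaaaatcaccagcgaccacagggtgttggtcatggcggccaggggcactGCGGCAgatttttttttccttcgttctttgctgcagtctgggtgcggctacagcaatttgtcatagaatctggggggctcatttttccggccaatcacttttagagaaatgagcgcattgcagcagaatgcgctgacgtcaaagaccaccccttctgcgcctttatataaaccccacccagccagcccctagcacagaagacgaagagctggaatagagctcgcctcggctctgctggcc
Mest: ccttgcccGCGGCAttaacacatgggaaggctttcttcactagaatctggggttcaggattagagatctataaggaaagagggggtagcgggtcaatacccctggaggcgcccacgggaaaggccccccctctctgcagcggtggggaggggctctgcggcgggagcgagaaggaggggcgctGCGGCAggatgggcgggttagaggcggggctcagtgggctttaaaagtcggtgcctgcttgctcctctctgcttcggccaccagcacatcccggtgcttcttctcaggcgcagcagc
Peg3: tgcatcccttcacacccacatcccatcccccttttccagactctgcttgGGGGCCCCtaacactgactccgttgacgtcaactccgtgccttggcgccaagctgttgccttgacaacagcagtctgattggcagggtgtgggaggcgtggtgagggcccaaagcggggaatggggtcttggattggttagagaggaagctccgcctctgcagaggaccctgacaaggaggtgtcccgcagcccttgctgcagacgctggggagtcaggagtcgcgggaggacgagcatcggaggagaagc

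*H19*, *Mest* and *Meg3* also carry microRNA genes inside their transcripts, which link these genes to growth control. Their mature sequences are given with the seed, bases 2 to 8, in capitals. The 6 seeds differ from each other, and the 3' counts of the host genes do not measure the mature microRNAs.
mmu-miR-675-5p (H19): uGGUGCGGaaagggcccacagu
mmu-miR-675-3p (H19): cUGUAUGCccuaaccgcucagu
mmu-miR-335-5p (Mest): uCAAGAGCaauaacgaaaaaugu
mmu-miR-335-3p (Mest): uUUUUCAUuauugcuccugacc
mmu-miR-770-5p (Meg3): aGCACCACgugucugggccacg
mmu-miR-770-3p (Meg3): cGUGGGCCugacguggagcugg

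The BSA library held 3703 barcodes and 67739460 UMIs, and the FGF8 library 7249 barcodes and 124889213 UMIs. Filters left 3252 and 6715 cells, with medians of 15377 and 12251 UMIs, and 4 kept barcodes were shared by the libraries. Clusters were named "-like" from marker lists. The fibroblast-like cluster (1715 BSA and 3321 FGF8 cells) had all 7 fibroblast markers and 2 of them, *Mfap5* and *Dpt*, among its 10 leading genes, although the tenocyte list stood slightly higher in it on average (mean log2 fold 3.14 against 3.01). Differences from the study's own cell types may come from these rebuilt names. Of the fibroblast-like cells whose sex could be called, 80.0% were female-called in the BSA library and 24.4% in the FGF8 library, so sex and bead moved together.

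All 8 genes were measured in the connective tissue cells of the wound, and their patterns across cell types fell into recognisably different shapes. Levels are given as CPM, the UMIs of the gene per 1000000 UMIs of the cells summed. *Dlk1* had its highest level in chondrocyte-like cells, at 563 CPM in the BSA library and 760.5 CPM in the FGF8 library. Smooth muscle or pericyte-like cells followed at 341 and 303 CPM, and fibroblast-like cells at 248 and 159 CPM. In the 6 other types *Dlk1* lay between 3.02 and 26.3 CPM, where the intervals of most neighbours in the order overlapped. *Meg3*, the neighbour of *Dlk1* on chromosome 12, was also led by chondrocyte-like cells (856 CPM BSA, 699 CPM FGF8) and by smooth muscle or pericyte-like cells (825 and 666 CPM), whose intervals overlapped in both libraries. Fibroblast-like cells held 729 and 452 CPM and Schwann-like cells 236 and 255.5 CPM of *Meg3*, but endothelial-like cells held 40.4 and 20.4 CPM.

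*H19* and *Mest* were low in the mural cells in which *Dlk1* and *Meg3* were high. *H19* stood at 854 and 710.0 CPM in chondrocyte-like cells of the BSA and FGF8 libraries, at 447 and 277 CPM in fibroblast-like cells, and at 20.4 and 53.0 CPM in smooth muscle or pericyte-like cells. *Mest* was highest in endothelial-like cells, at 506 and 624 CPM, above chondrocyte-like cells at 223 and 406.5 CPM and fibroblast-like cells at 284 and 171.5 CPM. In smooth muscle or pericyte-like cells *Mest* was at 8.97 and 29.5 CPM. These cells were thus set apart from fibroblast-like cells by low counts of *Mest* and *H19* beside high counts of *Dlk1*.

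*Peg3* and *Plagl1*, the zinc finger genes, shared a preference for chondrocyte-like cells. *Peg3* stood there at 698 and 625.5 CPM in the BSA and FGF8 libraries, against 294.5 and 188 CPM in fibroblast-like cells and 18.6 and 38.8 CPM in smooth muscle or pericyte-like cells. *Plagl1* stood at 503 and 523 CPM in chondrocyte-like cells, against 114 and 78.2 CPM in fibroblast-like cells and 8.28 and 17.8 CPM in smooth muscle or pericyte-like cells. In endothelial-like cells *Peg3* was at 136 and 210.1 CPM and *Plagl1* at 48.8 and 83.9 CPM.

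*Ndn* and *Grb10* were spread more evenly than *Peg3* and *Plagl1* over the types in which they were highest. In macrophage-like cells of the BSA and FGF8 libraries *Ndn* was at 4.66 and 8.47 CPM and *Grb10* at 17.9 and 23.3 CPM. *Ndn* was at 113 and 75.1 CPM in fibroblast-like cells of the BSA and FGF8 libraries, 121.5 and 102 CPM in smooth muscle or pericyte-like cells and 85.6 and 59.0 CPM in chondrocyte-like cells. *Grb10* was at 304 and 349 CPM in endothelial-like cells, 281 and 238 CPM in fibroblast-like cells, 279 and 249.9 CPM in chondrocyte-like cells and 240.0 and 242 CPM in Schwann-like cells. The first 3 of these intervals for *Grb10* overlapped in turn in the BSA library. No gene of the 8 had its highest level in fibroblast-like cells in both libraries, and chondrocyte-like cells led in both for *Dlk1*, *H19*, *Meg3*, *Peg3* and *Plagl1*. At clustering resolutions of 0.1 and 0.2, which split the fibroblast-like cluster, 2 genes (*Meg3* and *Ndn*) had it, at resolution 0.1 with *Meg3* at 969.9 and 858 CPM and *Ndn* at 151 and 129 CPM.

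**Figure D1:**
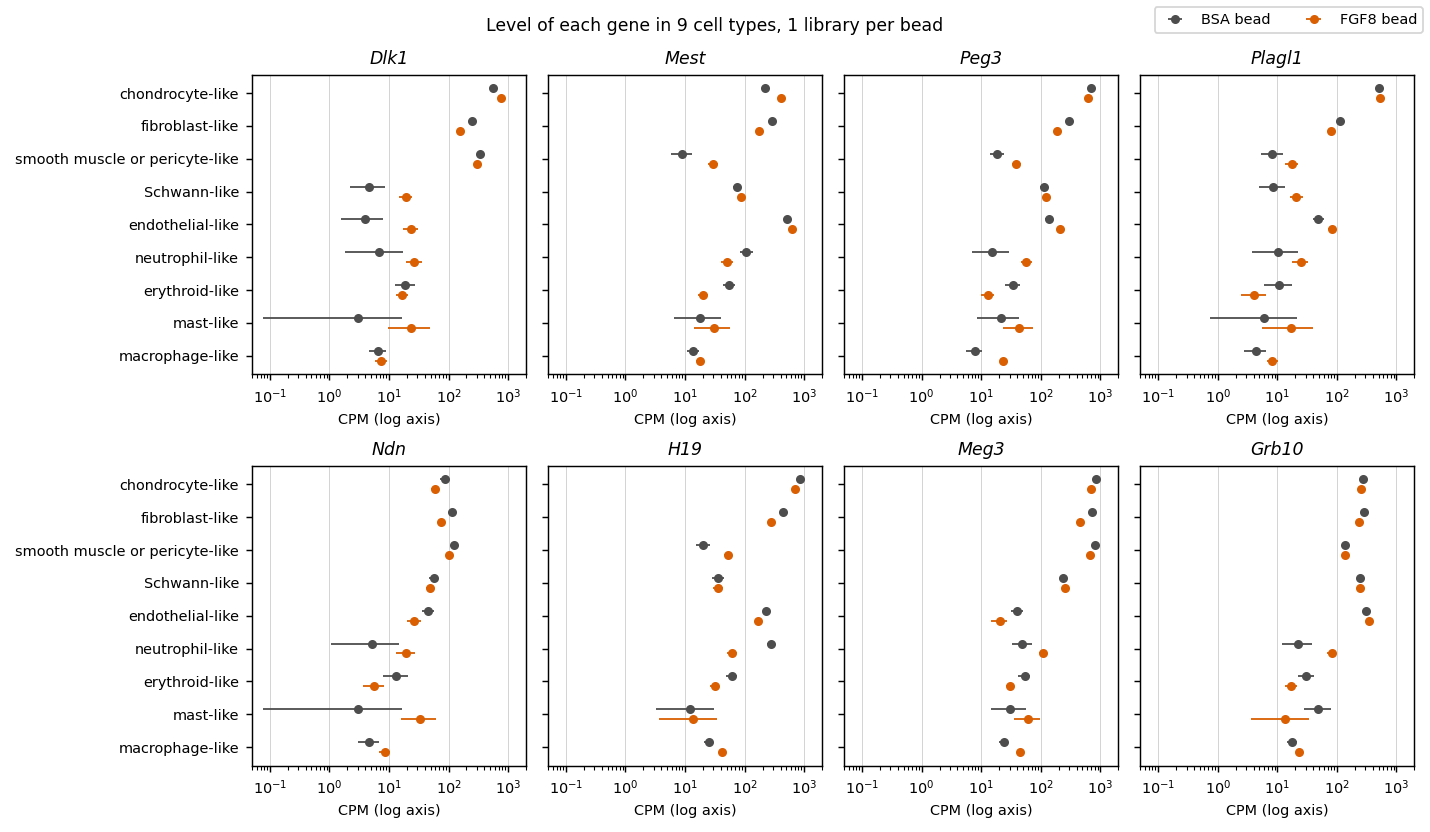
Level of each gene (CPM, log axis) in 9 cell types, with 1 point per library (grey BSA bead, orange FGF8 bead) and lines for the exact 95% Poisson interval of the count. *Dlk1* and *Meg3* were high and *Mest* and *H19* low in smooth muscle or pericyte-like cells, for example 341 against 8.97 CPM for *Dlk1* and *Mest* in the BSA library.

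Macrophage-like cells, a blood-derived type, were used as the comparison for low counts, which free RNA can give in droplet data. Single macrophage-like cells held up to 54 *H19* UMIs (FGF8) and 38 *Mest* UMIs (BSA), so their counts need not be free RNA alone, and the source was not tested. After every cell was thinned to 2000 UMIs, 0.718% (BSA) and 0.95% (FGF8) of macrophage-like cells held a *Dlk1* UMI, against 14.9% and 12.6% of fibroblast-like cells. For *Meg3* the shares were 1.67% and 4.28% of macrophage-like cells against 60.0% and 49.9% of fibroblast-like cells. For *H19* they were 4.55% and 5.11% against 29.9% and 23.9%. Without thinning, 29.3% and 29.7% of fibroblast-like cells held *Dlk1*, 84.5% and 83.8% *Meg3* and 56.4% and 56.0% *H19*, at median depths of 20059 and 18623 UMIs. The unthinned shares in macrophage-like cells were 2.97% and 6.94%, 9.13% and 10.8%, and 11.7% and 19.5%, at median depths of 10283 and 9618 UMIs. In endothelial-like cells of the FGF8 library the thinned share of *Dlk1* was 0.752% of 133 cells, too few for an order beside macrophage-like cells. Among these endothelial-like cells 1 cell held 40 of the 50 UMIs. The level of 23.2 CPM thus rests mostly on that cell, and the source was not tested. In smooth muscle or pericyte-like cells of the BSA library the thinned share of *Mest* was 0.556% of 180 cells, beside 0.718% of 418 macrophage-like cells. These shares rest on too few cells for an order to be read. In the FGF8 library it was 3.99%, above the 1.78% of macrophage-like cells. In neutrophil-like cells of the BSA library, *H19* at 274 CPM came largely from 1 cell, which held 144 of the 161 UMIs.

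In fibroblast-like cells, each of the 8 genes was lower in the FGF8 library. *Mest* stood at 284 CPM in the BSA library and 171.5 CPM in the FGF8 library, a log2 ratio of -0.73 (interval -0.77 to -0.69). *H19* stood at 447 and 277 CPM, a log2 ratio of -0.69 (-0.72 to -0.66). *Meg3* stood at 729 and 452 CPM, a log2 ratio of -0.69 (-0.71 to -0.67). None of these intervals reached 0, and the FGF8 levels were 60.3% to 62.0% of the BSA levels.

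*Peg3* stood at 294.5 and 188 CPM, a log2 ratio of -0.65 (-0.68 to -0.61), and *Dlk1* at 248 and 159 CPM, a log2 ratio of -0.64 (-0.68 to -0.60). *Ndn*, with 113 and 75.1 CPM, had a log2 ratio of -0.59 (-0.65 to -0.53), and *Plagl1*, with 114 and 78.2 CPM, had -0.545 (-0.60 to -0.49). *Grb10*, the adaptor that dampens growth factor signalling, differed least, with 281 and 238 CPM and a log2 ratio of -0.24 (-0.27 to -0.20). The intervals of the other 7 genes lay wholly below that of *Grb10*.

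The median log2 ratio of the 8 genes was -0.645, beside -0.07 for all 20053 genes with at least 10 UMIs in these cells. A ratio below 0 was found in 55.9% of all those genes, and in 52.9% of the 9130 genes with at least 1000 UMIs, a depth that all 8 genes reached. None of the 8 had a log2 ratio beyond 1 in either direction, beside 11.7% of all genes with at least 10 UMIs. Of the 9130 genes with at least 1000 UMIs, 327 were beyond 1. Among the 9130 well counted genes, 3.73% had a lower ratio than *Mest*, 4.46% a lower one than *H19*, 7.79% a lower one than *Plagl1* and 26.3% a lower one than *Grb10*. Summed, the 8 genes made up 2512 CPM of the BSA and 1639.5 CPM of the FGF8 fibroblast-like transcriptome, a log2 ratio of -0.62 (-0.63 to -0.60).

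The size of the difference depended on which cells were summed. With the finer clustering at resolution 0.1, which set apart 596 BSA and 1566 FGF8 cells led by *Prg4*, *Ptgis* and *Timp1*, the median log2 ratio was -0.29 in the remaining fibroblast-like cells (where *Grb10* was at 0.07) and -0.65 in the cells set apart (where *Dlk1* was at 0.05). The latter are given no cell type here, since the osteoblast list stood higher in them than the tenocyte list (mean log2 fold 2.25 against 1.92). The level of the 7 fibroblast markers moved with the result, from 6688 CPM in the BSA to 4438 CPM in the FGF8 fibroblast-like cells, while the 5 tenocyte markers stood at 446 and 626 CPM and the 7 chondrocyte markers at 274 and 251 CPM. No marker of these 3 lists was at 0, and their part in the result was not tested.

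Within cells called by sex, the direction was kept by all 8 genes, but not the size. In female-called cells (1191 BSA, 686 FGF8) the median log2 ratio was -0.62, beside -0.09 for all genes, of which 57.1% were below 0. In male-called cells (297 BSA, 2127 FGF8) it was -0.40, beside -0.06 for all genes, of which 55.1% were below 0. *Mest* stood at 314 CPM in BSA and 178 CPM in FGF8 female-called cells, a log2 ratio of -0.82 (-0.88 to -0.75), but at 194 and 174 CPM in male-called cells, a log2 ratio of -0.16 (-0.24 to -0.07). *Dlk1* stood at 259 and 174 CPM in female-called cells (-0.57, -0.64 to -0.51) and at 175 and 153 CPM in male-called cells (-0.19, -0.28 to -0.11). These intervals did not overlap for *Mest*, *Dlk1*, *H19*, *Peg3* or *Plagl1*, whereas they did for *Meg3*, *Ndn* and *Grb10*. Of the 5904 genes with at least 1000 UMIs in each sex, which include all 8, the intervals of 20.8% did not overlap, and of the 17296 genes with at least 10 UMIs in each, those of 9.78%.

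Over all fibroblast-like cells together, *Meg3* and *Ndn* kept nearly the same size in both sexes. *Meg3* had log2 ratios of -0.70 and -0.62 in female-called and male-called cells, and *Ndn* had -0.58 and -0.62. Inside the BSA library, female-called cells exceeded male-called cells by a log2 ratio of 0.70 for *Mest*, 0.57 for *Dlk1* and 0.47 for *H19*. Inside the FGF8 library the same ratios were 0.04, 0.19 and 0.27. The 2 sexes of a library came from different mice of its pool, so sex and litter or animal cannot be told apart.

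**Figure D2:**
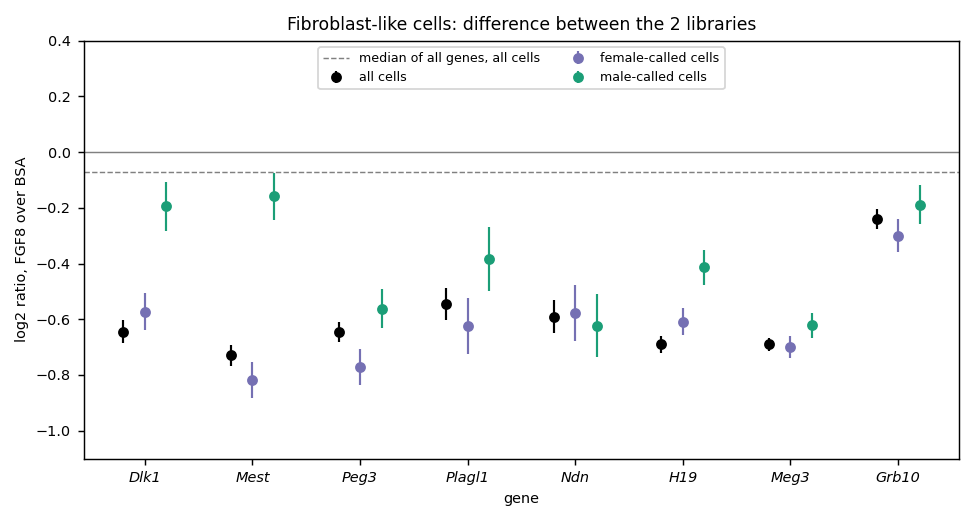
Log2 ratio of FGF8 over BSA in fibroblast-like cells for each gene, over all cells (black), female-called cells (purple) and male-called cells (green), with exact 95% counting intervals. The solid line is 0 and the dashed line the median of all genes (-0.07). All points lie below 0, and *Mest* is at -0.82 in female-called but -0.16 in male-called cells.

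The fibroblast-like cells were clustered again without the imprinted genes, the X- and Y-linked genes and the study's listed genes among the features, which gave 7 subclusters. Their shares differed between libraries. Subcluster 0, led by *Prg4*, *Spp1* and *Mmp3* and also by the division genes *Ube2c*, *Birc5* and *Cdca8*, held 24.6% of BSA and 38.4% of FGF8 cells. Subcluster 1, led by *Nrg1*, *St6galnac3* and *Meis1*, held 30.3% and 21.3%. The other 5 held 1.75% to 16.2% of a library's cells.

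Subcluster 0 was where *H19* and *Mest* differed most among the 3 largest subclusters. *H19* stood there at 615 CPM in the BSA and 266 CPM in the FGF8 library, a log2 ratio of -1.21 (-1.25 to -1.17), and *Mest* at 445 and 184 CPM, a log2 ratio of -1.27 (-1.33 to -1.22). In male-called cells alone these ratios were -0.47 for *H19* and -0.37 for *Mest*, and in female-called cells -1.21 and -1.35, where 82.5% of the BSA and 23.6% of the FGF8 sex-called cells of the subcluster were female-called. *Meg3* was low in this subcluster, at 344 and 202.5 CPM, beside 812 and 676 CPM in subcluster 1 and 1273 and 1104 CPM in subcluster 2. *Dlk1* went the other way there, with 91.2 and 105 CPM and a log2 ratio of 0.20 (0.10 to 0.30). In subcluster 0 the 7 fibroblast markers were at 4313 and 2741 CPM and the 7 chondrocyte markers at 543 and 317 CPM, and their part was not tested.

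*Dlk1* marked subcluster 2, which was led by *Lpl*, the lipoprotein lipase gene, and by *Dlk1* itself although *Dlk1* had been left out of the features. It stood there at 911.5 CPM in the BSA and 617 CPM in the FGF8 library, a log2 ratio of -0.56 (-0.62 to -0.51), and at 39.8 to 379 CPM in the other subclusters. In male-called cells of subcluster 2 the *Dlk1* ratio was -0.11, with an interval that reached 0, and in female-called cells -0.58. *Meg3* (1273 and 1104 CPM) was also higher in subcluster 2 than in any other, while *Mest* was at 151 and 95.5 CPM. The *Meg3* ratio in subcluster 2 turned with sex. It was -0.15 (-0.23 to -0.08) in female-called but 0.34 (0.25 to 0.43) in male-called cells. *Mest* was highest in subcluster 6, a group of 39 BSA and 58 FGF8 cells led by *Cldn1* and *Ebf2*, at 1045 and 549 CPM. It was lowest in subcluster 5, led by *Corin* and *Sox18*, at 11.3 and 32.0 CPM, where *H19* was lowest too (11.3 and 19.02 CPM).

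Seen over all subclusters, the genes did not move alike. The summed level of the 8 genes had log2 ratios of -0.84 in subcluster 0, -0.23 in 1, -0.29 in 2, -0.39 in 3, -0.15 in 4 and -0.88 in 6, but 0.19 in 5. *Grb10* was between -0.01 and 0.10 in subclusters 1 to 4, with intervals that reached 0, and at -0.455 in subcluster 0. With every subcluster given equal weight, the median log2 ratio of the 8 genes was -0.36. The lowest *Dlk1* ratios were -2.16 (-2.51 to -1.82) in subcluster 6 and -1.76 (-2.07 to -1.46) in subcluster 3. *H19* was at -1.39 (-1.67 to -1.13) in subcluster 6. In male-called cells of subcluster 3 the *Dlk1* interval reached 0 (-0.74 to 1.14). Subcluster 3 had few UMIs per cell, with medians of 2822 and 2600.5.

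**Figure D3:**
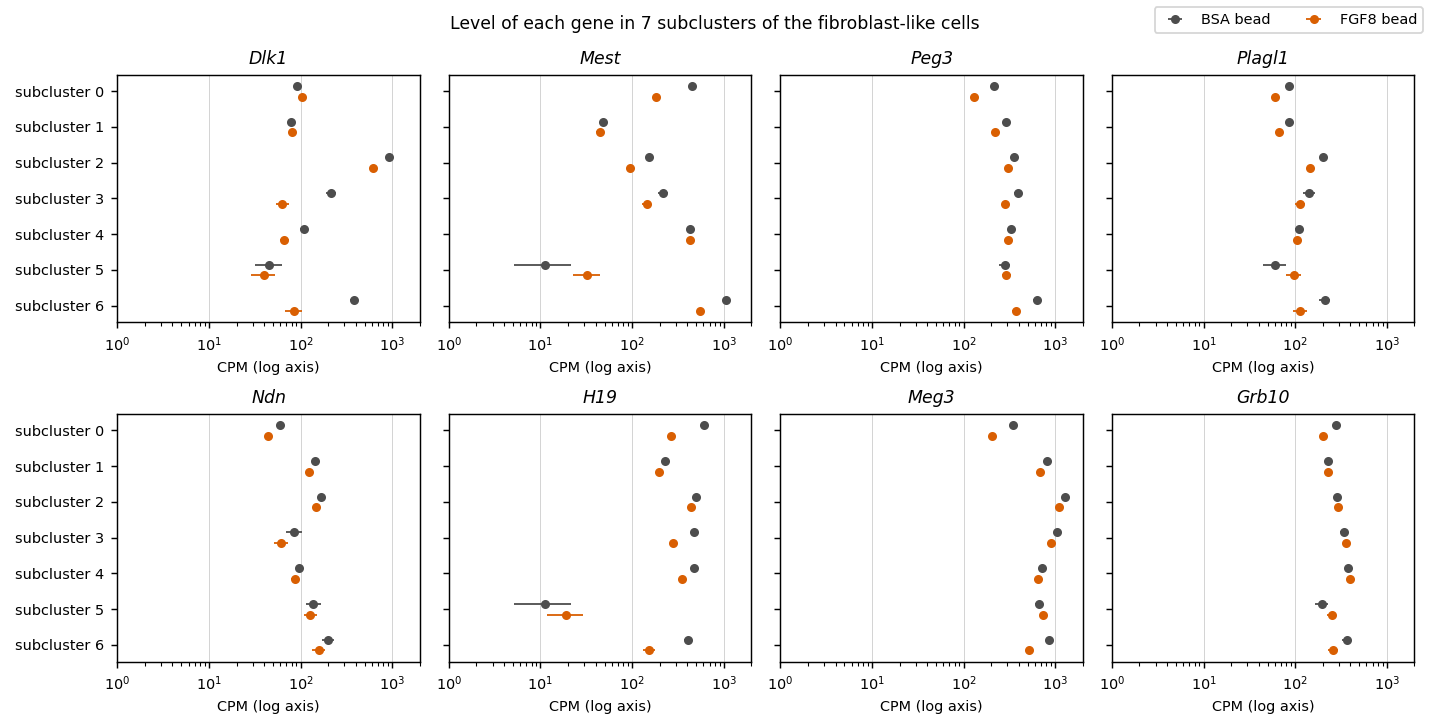
Level of each gene (CPM, log axis) in the 7 subclusters of the fibroblast-like cells, with 1 point per library (grey BSA bead, orange FGF8 bead) and exact 95% Poisson intervals. *Dlk1* peaks in subcluster 2 (911.5 and 617 CPM) and *Mest* in subcluster 6 (1045 and 549 CPM), and the libraries are far apart for *H19* and *Mest* in subcluster 0.

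The genes also differed in how they were spread over single cells. The 10% of fibroblast-like cells richest in *Dlk1* held 89.2% of its UMIs in the BSA and 87.4% in the FGF8 library, with up to 330 and 241 UMIs in 1 cell, while 70.7% and 70.3% of the cells held none. *H19* (68.7% and 70.1% of UMIs in the richest 10% of cells) and *Mest* (69.1% and 71.0%) were less concentrated. *Grb10* was the most even, with 32.5% and 31.2%. The concentration of each gene was thus nearly the same in the 2 libraries, although the levels were not.

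Cells with RNA of mitotic genes were more frequent in the FGF8 library, and several of the genes were lower in them. After thinning to 5000 UMIs, 19.6% of 1498 BSA and 45.8% of 2933 FGF8 fibroblast-like cells held a UMI of *Mki67*, *Top2a*, *Cenpf*, *Ccnb1* or *Cdk1*. *Meg3* was lower in cells with a mitotic UMI than in those without, at 488 against 835 CPM in the BSA and 385 against 696 CPM in the FGF8 library (log2 ratios -0.78 and -0.86). *Ndn*, whose protein holds back division, had log2 ratios of -0.53 and -0.68, *Peg3* -0.52 and -0.52 and *Dlk1* -0.48 and -0.38. *Mest* was higher in them, with 0.26 and 0.21, and all of these intervals lay on 1 side of 0. *Plagl1* was at -0.28 and -0.20, *H19* at 0.01 and -0.17 and *Grb10* at 0.04 and -0.19. The intervals of *H19* and *Grb10* reached 0 in the BSA library. The share of all genes lower in cells with a mitotic UMI was not counted. Subcluster 0, low in *Meg3*, was also led by division genes, and its part in these ratios was not tested.

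Between libraries, all 8 genes had an FGF8 over BSA log2 ratio below 0 within both kinds of cell. So had 50.2% of 15098 genes in cells without a mitotic UMI and 54.1% of 13740 genes in cells with one. The intervals of the 8 genes also lay below 0, a condition that was not counted over all genes. Among cells without a mitotic UMI the FGF8 over BSA log2 ratios were -0.58 for *Mest*, -0.51 for *H19*, -0.49 for *Dlk1*, -0.39 for *Plagl1*, -0.35 for *Peg3*, -0.26 for *Meg3*, -0.17 for *Ndn* (-0.32 to -0.03) and -0.11 for *Grb10* (-0.20 to -0.02). Among cells with one they lay between -0.31 (*Plagl1*) and -0.69 (*H19*). For *Meg3* the ratio was -0.34 in cells with a mitotic UMI, beside -0.47 over all cells thinned to the same depth.

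**Figure D4:**
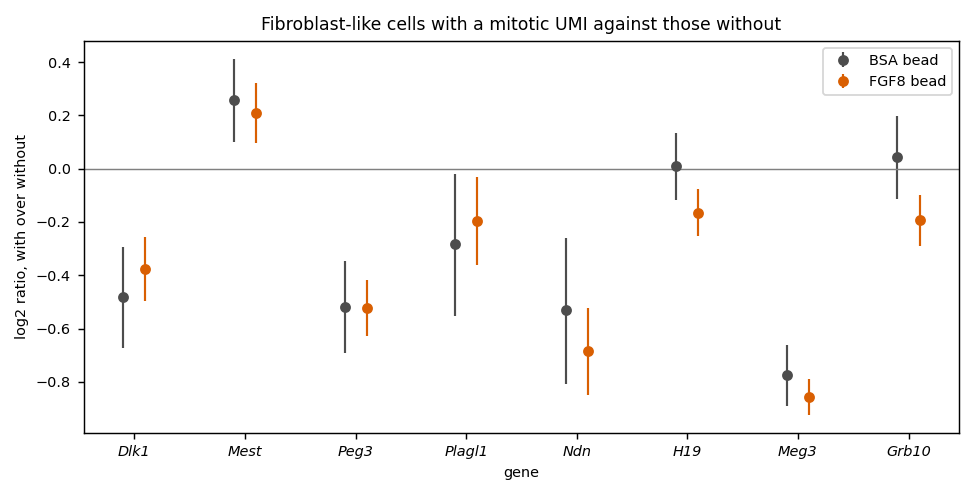
Log2 ratio of the level in fibroblast-like cells with a mitotic UMI over that in cells without, for each gene and library (grey BSA bead, orange FGF8 bead), with exact 95% counting intervals, after thinning to 5000 UMIs. *Meg3* is lowest (-0.78 and -0.86) and *Mest* lies above 0 (0.26 and 0.21) in both libraries.

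Outside the fibroblast-like cells the direction was mixed. In chondrocyte-like cells (66 BSA, 142 FGF8) 5 of the 8 genes had a log2 ratio below 0, beside 53% of 12137 genes, and the summed level was 4062 and 4033 CPM. Of the sex-called cells there, 74.55% were female-called in the BSA and 33.9% in the FGF8 library, so the sum mixes sex and bead. *Mest* was at 223 CPM in the BSA and 406.5 CPM in the FGF8 library there, a log2 ratio of 0.87 (0.70 to 1.04), and *Dlk1* at 563 and 760.5 CPM, a log2 ratio of 0.43 (0.32 to 0.54). The direction of *Dlk1* turned with sex, at 0.62 in female-called cells (41 BSA, 41 FGF8) but -0.25 (-0.45 to -0.05) in male-called cells (14 BSA, 80 FGF8), whereas *Mest* was at 0.71 and 1.11. *H19*, *Meg3*, *Peg3* and *Ndn* had log2 ratios of -0.27, -0.29, -0.16 and -0.54 with intervals below 0, but *Peg3* turned with sex too, at -0.76 among female-called cells and 0.69 (0.44 to 0.94) among male-called cells. Within female-called and male-called cells *H19* was at -0.85 and -0.51 and *Meg3* at -0.39 and -1.02, all further from 0 than over all cells. The intervals of *Plagl1* (0.05) and *Grb10* (-0.16) reached 0, although those of *Grb10* lay below 0 in each sex. The 7 chondrocyte markers stood at 49809 CPM in the BSA and 37676 CPM in the FGF8 chondrocyte-like cells, and their part was not tested.

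In smooth muscle or pericyte-like cells (186 BSA, 285 FGF8) 4 of the 8 genes were below 0, beside 47.7% of 13270 genes. *Meg3* had 825 and 666 CPM there and a log2 ratio of -0.31 (-0.39 to -0.23), and *Dlk1* 341 and 303 CPM and a log2 ratio of -0.17 (-0.30 to -0.05). *Ndn* was at -0.25 (-0.47 to -0.04) and *Grb10* at -0.02 (-0.22 to 0.17), or -0.46 among female-called and 0.41 among male-called cells. *H19*, *Mest*, *Peg3* and *Plagl1*, which were low there (8.28 to 53.0 CPM), had ratios between 1.06 and 1.72, and the 7 fibroblast markers moved with them, from 451 to 864 CPM. The intervals of *H19* and *Peg3* lay above 0 in both sexes. Those of *Mest* in female-called cells (0.29, -1.24 to 1.68) and *Plagl1* in male-called cells (-0.10, -1.23 to 1.17) reached 0. In endothelial-like cells (119 BSA, 143 FGF8) *Mest* had a log2 ratio of 0.30 (0.18 to 0.42) and *H19* one of -0.45 (-0.66 to -0.24). *H19* turned with sex, with an interval from -1.38 to -0.64 in female-called cells (82 BSA, 35 FGF8) but a ratio of 1.27 (0.67 to 1.92) in male-called cells (14 BSA, 79 FGF8), while *Mest* was at 0.23 and 0.35. The 5 lymphatic endothelial markers moved from 3476 CPM in the BSA to 1332 CPM in the FGF8 endothelial-like cells and the 7 endothelial markers from 3869 to 4479 CPM, and their part was not tested. In Schwann-like cells (124 BSA, 240 FGF8) *Grb10*, *Meg3*, *Peg3*, *Mest*, *H19* and *Ndn* had intervals that reached 0, with *Grb10* at 240.0 and 242 CPM. *Dlk1* (10 and 61 UMIs) and *Plagl1* (18 and 67 UMIs) had log2 ratios of 2.02 (1.05 to 3.15) and 1.31 (0.54 to 2.15). The summed level of the 8 genes was at 0.11 (0.02 to 0.20). The 7 chondrocyte markers moved from 77.6 to 437 CPM in these cells, and their part was not tested. In erythroid-like cells (82 BSA, 613 FGF8) all 8 genes were below 0, beside 67% of 7748 genes, and their median log2 ratio was -1.09, beside -0.32 for all genes. Levels there were low (4.11 to 60.4 CPM), as in macrophage-like cells, and the *Dlk1* interval reached 0 (-0.86 to 0.48). Median depths were 18542 and 6983 UMIs, and 12 BSA cells were female-called and 3 male-called, so no change in erythroid-like cells is read.

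Other imprinted genes were taken from a list of 44, of which 41 were listed in the files and 38 reached 10 UMIs in the fibroblast-like cluster. The median ratio of these 38 was -0.35 on the log2 scale, beside -0.07 for all 20053 genes with at least 10 UMIs. Of the 38, 27 were below 0, beside 55.9% of those 20053 genes. *Cdkn1c*, the maternally expressed inhibitor of cyclin-dependent kinases, stood at 529.9 CPM in the BSA and 221 CPM in the FGF8 library, a log2 ratio of -1.26 (-1.29 to -1.23). *Zim1*, the zinc finger gene next to *Peg3*, stood at 30.1 and 13.4 CPM, a log2 ratio of -1.17 (-1.30 to -1.04). Counting genes that reached 100 UMIs, these 2 were the ones beyond 1, and the 5 others beyond 1 (*Klf14*, *Slc22a18*, *Phlda2*, *Asb4* and *Ascl2*) rested on 12 to 92 UMIs. Together 7 of the 38 were beyond 1, beside 11.7% of the 20053 genes.

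The most abundant of the others differed less. *Gnas*, which encodes the stimulatory G protein alpha subunit, stood at 2080 and 1599.4 CPM (log2 ratio -0.38), *Airn*, a noncoding RNA transcribed antisense over *Igf2r*, at 229.7 and 175 CPM (-0.39), and *Igf2r* itself, the receptor that clears IGF2, at 118 and 92.4 CPM (-0.36). *Ube3a*, imprinted in neurons, stood at 130.2 and 131 CPM (0.01), with an interval that reached 0. *Ppp1r9a* was at 16.5 and 8.89 CPM (-0.89). On the other side, *Tfpi2* stood at 6.30 and 11.9 CPM (0.91), *Slc38a4*, an amino acid transporter, at 16.1 and 23.4 CPM (0.54), and *Zdbf2* at 3.24 and 4.37 CPM (0.43).

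The neighbours of *Dlk1* and *Meg3* in the chromosome 12 region were looked at after their values were seen. Beside *Dlk1* (-0.64) and *Meg3* (-0.69), the noncoding *Rian* was at -0.69 and *Mirg* at -0.46, while the intervals of *Rtl1* (-0.07), *Begain* (0.32) and *Dio3* (0.24) reached 0, so no direction is read for these 3. Beside *H19*, *Igf2*, the growth factor whose gene shares its enhancers, stood at 19.6 CPM in the BSA and 11.9 CPM in the FGF8 library, a log2 ratio of -0.72 (-0.87 to -0.57). In male-called cells *Igf2* was at 12.5 and 12.02 CPM, with an interval from -0.39 to 0.29.

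**Figure D5:**
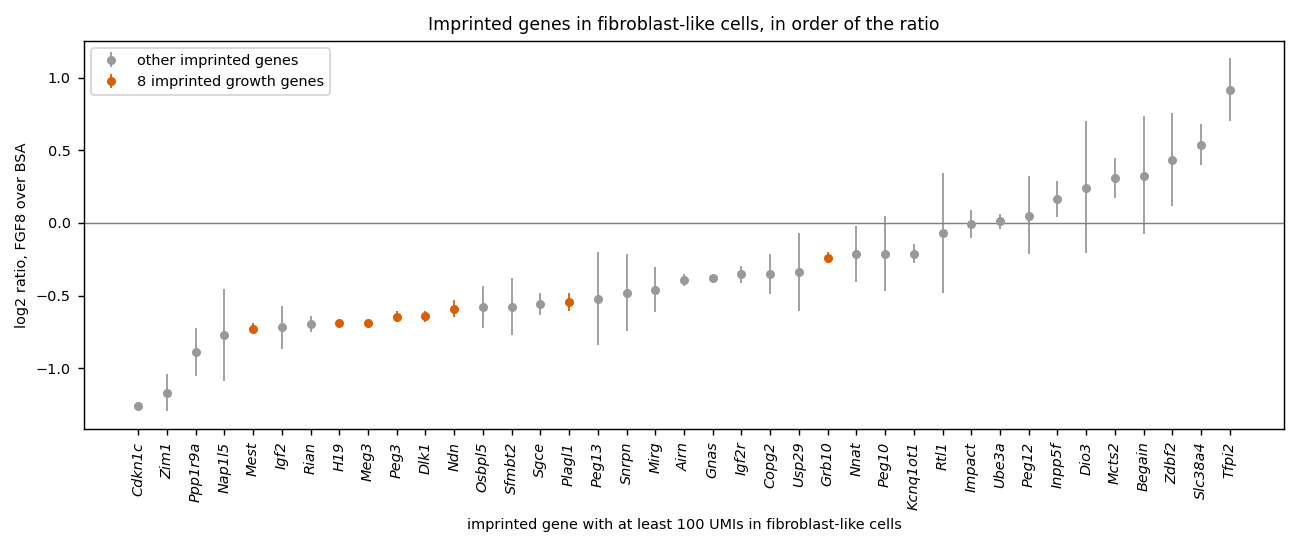
Log2 ratio of FGF8 over BSA in fibroblast-like cells for the 8 genes (orange) and the other imprinted genes (grey) with at least 100 UMIs, in order of the ratio, with exact 95% counting intervals. *Cdkn1c* is lowest (-1.26) and *Tfpi2* highest (0.91), and 7 of the 8 genes lie between -0.73 and -0.545.

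Likeness of pattern was measured as Pearson's r of log2(CPM + 1) over 30 points, 15 cell types and subclusters in each of the 2 libraries, among 10738 genes. The points share libraries, so r is a description. *Meg3* was most like *Rian*, its neighbour in the same region (r = 0.986), then the collagen genes *Col6a3* (0.955) and *Col6a2* (0.954). *Peg3* and *Plagl1* were each the gene most like the other (0.945), followed for *Peg3* by *Npr2* (0.897) and *Uggt2* (0.894) and for *Plagl1* by *Prelp* (0.912) and *Slc38a4* (0.869). *H19* was most like *Nrk* (0.872), *Igf2* (0.853) and *Ecrg4* (0.835), and *Mest* most like *H19* (0.806), *Ace* (0.773) and *S100a16* (0.761).

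*Grb10* was most like *Wwtr1* (0.963), *Maged1* (0.951) and *Fkbp10* (0.95), *Ndn* most like *Sparc* (0.932), *Fkbp9* (0.926) and *Triqk* (0.923), and *Dlk1* most like *Zfp804b* (0.84), *Map7d3* (0.82) and *Fap* (0.812). Among the 8 genes, *Dlk1* and *Meg3* were at 0.811 and *Meg3* and *Ndn* at 0.886, whereas *Meg3* and *Mest* were at 0.237. Over single fibroblast-like cells thinned to 5000 UMIs, *Dlk1* and *Meg3* had a Spearman rho of 0.325 in the BSA and 0.283 in the FGF8 library, and *Meg3* and *Mest* one of -0.08 in both.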

How the data were processed

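Single-cell 3' RNA sequencing (10x Genomics v3.1) gave 1 library per bead. The authors aligned the reads with Cell Ranger 9.0.0 to GRCm39, per the labels and the study's methods, and deposited counts, whole UMIs per gene and cell barcode, of filtered barcodes. The labels also name mm10, with no role stated.

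The study's filter was applied (more than 200 and fewer than 7500 genes per cell, under 15% mitochondrial UMIs). Clusters came from Seurat 5.3.0 (SCTransform 0.4.2, CCA integration, 30 principal components, resolution 0.05, seed 42), without the 8 genes and the wider imprinted list among the features (2985 of 3000 left). Fibroblast-like cells were clustered again at resolution 0.2 (2649 of 3000 features), and endothelial-like cells, which resolution 0.05 left inside an unnamed cluster led by *Lgals7*, were taken at resolution 0.1. A cluster took the name with the most markers among its 10 leading genes, then with the highest mean fold, a rule set after the data were seen. Scrublet in scanpy 1.11.5 called 0 doublets in both libraries, which shows that the call did not work, so none were removed. A cell was called female or male from *Xist* and 4 Y-linked genes.

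The UMIs of each cell type were summed within a library and scaled to CPM. Levels have exact Poisson, shares exact Clopper-Pearson and ratios exact conditional intervals (scipy 1.17.1). Only the ratio intervals were checked by simulation, on Poisson counts, which cannot show how well they hold for these data. With 1 library per condition no p-value was computed, and a log2 ratio beyond 1 was the rule of size. PCR duplicates are removed by UMIs, and intervals cover counting error only. The 8 genes and all lists were chosen with earlier results of these data known. Named were all 8 genes, of the wider list the 5 with the most UMIs in fibroblast-like cells, the 3 highest and 3 lowest ratios among those with at least 100 UMIs and any beyond 1 there, the 3 genes most like each of the 8 in pattern, and 5 mitotic genes. Other genes are named as exceptions, after their values were seen. Alternatives changed the cell filter, integration, resolution, features, weights, scaling, depth, sex, doublets and the minimum of UMIs. Positions are from GENCODE vM39 on GRCm39. Promoter and microRNA sequences are from RefSeq on GRCm38.p6, where *H19* had no promoter entry in the table used.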

Additional observations from a re-analysis of the deposited data

Results flagged for a closer look

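The direction of FGF8 over BSA in other cell types was opposite to that in fibroblast-like cells for 8 combinations of gene and cell type with at least 100 UMIs in each library and counting intervals on either side of 0. With 1 library per condition the difference itself was not tested. In chondrocyte-like cells the log2 ratios were 0.43 for *Dlk1* and 0.87 for *Mest*, and *Dlk1* was at -0.25 in male-called cells alone. In endothelial-like cells they were 0.30 for *Mest*, 0.63 for *Peg3* and 0.20 for *Grb10*, and *Grb10* was at -0.34 (-0.61 to -0.06) in male-called cells alone. From the BSA to the FGF8 endothelial-like cells the 7 fibroblast markers moved from 511 to 172 CPM, the 7 chondrocyte markers from 56.0 to 254 CPM and the 5 lymphatic endothelial markers from 3476 to 1332 CPM. In macrophage-like cells the ratios were 0.74 for *H19*, 0.91 for *Meg3* and 0.37 for *Grb10*, on levels between 17.9 and 45.2 CPM. These are the counts used as the comparison for free RNA, so no change in macrophage-like cells is read from them. In female-called cells *H19* was at -0.07 (-0.66 to 0.49), *Meg3* at 0.21 (-0.35 to 0.75) and *Grb10* at 0.09 (-0.71 to 0.85). In male-called cells (72 BSA, 489 FGF8) *H19* was at 2.555 (1.56 to 3.78), *Meg3* at 1.62 (0.92 to 2.42) and *Grb10* at 2.605 (1.22 to 4.5). The BSA levels of the 3 genes in male-called cells were 3.79 to 16.1 CPM. The 7 fibroblast markers stood at 303 CPM in the BSA and 395 CPM in the FGF8 macrophage-like cells. The part of these markers in the ratios was not tested.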

How the results depend on the processing

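The median log2 ratio of the 8 genes in fibroblast-like cells stayed below 0 under all 13 alternatives, while its size moved from the reported -0.645 to -0.43 with a stricter cell filter, -0.29 at resolution 0.1, -0.27 at resolution 0.2, -0.42 with equal weight of cells, -0.57 when centred on the median of all genes (-0.07), -0.46 and -0.47 when cells were thinned to 2000 and 5000 UMIs, -0.40 in male-called cells and -0.36 with equal weight of subclusters. At resolutions 0.1 and 0.2 fewer cells were summed, namely 65.1% and 53.2% of the BSA and 52.8% and 40.4% of the FGF8 fibroblast-like cells, and for the other settings the cause was not tested. The median of the wider list moved from -0.35 to -0.17 at resolution 0.1 and stayed below 0 under all 15 alternatives. The number of the 8 genes with their highest level in fibroblast-like cells was 0 and became 2 at resolutions 0.1 and 0.2. No gene of the 8 passed a log2 ratio of 1 under any of the 13 alternatives. Of the single genes, 7 stayed below 0 under all 13, and *Grb10* under 11, with its highest value of 0.07 at resolution 0.1. No paired analysis was possible because each condition had 1 library and the labels give no shared replicate number, and for the same reason no library could be left out. Depth limits the mast-like cells most, where the 8 genes together had 47 and 70 UMIs.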

Other observations

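Erythroid-like cells had for the 8 genes a summed level of 276 and 139 CPM in the BSA and FGF8 libraries, a log2 ratio of -0.99 (-1.18 to -0.81). The 7 fibroblast markers stood there at 579 and 364 CPM and the 7 chondrocyte markers at 195 and 60.1 CPM, and their part was not tested. In the BSA library 1 erythroid-like cell held 71 of the 86 *H19* UMIs. In the unnamed cluster led by *Lgals7* (413 BSA, 629 FGF8), which includes endothelial-like cells, *Mest* stood at 240.4 and 229 CPM and *H19* at 177 and 90.1 CPM.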
